A study of Mus musculus with 4 samples.

Results

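The genes described here are those of the mouse major histocompatibility complex (MHC, named H2 in the mouse) and of antigen presentation. They were chosen by name: every gene whose symbol starts with H2-, plus B2m, Tap1, Tap2, Tapbp, Psmb8, Psmb9, Psmb10, Cd74, Ciita and Nlrc5. Of 55228 genes in the count table, 55 met this rule: 33 of class I, 14 of class II, 7 of antigen processing, and H2-Ke6, an enzyme gene that lies among them and has no part in antigen presentation. A total of at least 20 counts over the 4 libraries was reached by 33 of the 55, namely 16 of class I, 9 of class II, all 7 processing genes and H2-Ke6. Of the 22 below that limit, 13 had no count in any library and the other 9 had totals up to 14.

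The cells came from the rib cartilage of C57BL/6 mice at stage E17.5 of gestation, when rib cartilage is growing and in part being replaced by bone. Wild-type embryos (WT) gave 2 libraries and Trim28 knockout embryos (Trim28 KO) gave 2, and the only difference the labels give between the groups is this genotype. TRIM28 is a corepressor that helps to form heterochromatin where zinc finger proteins bring it to DNA. The labels do not state how the knockout was made, in which cells it acts, or whether each library stands for its own embryo. The p-values therefore cover only library-to-library spread, which may be technical.

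Totals ran from 18616896 to 20082123 counts. Libraries of the same genotype were further apart than counting error allows (chi-square per degree of freedom of 33.6 in WT and 26.4 in Trim28 KO). Trim28 itself stood at 225 and 186 CPM (counts divided by the TMM-scaled library total) in the WT libraries and at 51.1 and 54.5 CPM in the Trim28 KO libraries, a 3.89-fold fall (log2 fold change of -1.96 ± 0.20, SE, adjusted p = 2.28e-07), so transcript remained in both Trim28 KO libraries. The cartilage label was met: none of 10 chondrocyte genes was at 0 and their summed level lay between 83394 and 113693 CPM in the 4 libraries. None of the 10 was called by edgeR, 1 was higher at an unadjusted p under 0.05, and DESeq2 called 1. By edgeR's quasi-likelihood test with Benjamini-Hochberg adjustment over 16639 genes, 17.4% passed an adjusted p under 0.05. Rises in Trim28 KO made up 8.64% of the tested genes (1438) and falls 8.77% (1460), and rose or fell is written only of genes past that threshold.

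Class I molecules are carried by nearly all nucleated cells. A heavy chain, encoded by an H2-K, H2-D, H2-Q, H2-T or H2-M gene, pairs with beta-2 microglobulin (B2m) and shows peptides cut by the proteasome, moved into the endoplasmic reticulum by TAP and loaded with the help of tapasin (Tapbp), to CD8 T cells or natural killer cells. Class II molecules are pairs of an alpha and a beta chain that show peptides from endocytosed protein to CD4 T cells. Macrophages, dendritic cells and B cells are their usual source. NLRC5 and CIITA are the transactivators of class I and class II genes, and interferon gamma raises both classes in many cells.

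The promoters of class I genes share short elements, which are shown here because many of these genes moved together. The windows run from 250 bases before to 50 bases after the annotated start, 5′ to 3′ along the gene, and come from RefSeq on GRCm38.p6, the assembly of the mm10 build. H2-K1 is at chr17:34000298-34000597 on the minus strand, H2-D1 at chr17:35262844-35263143 on the plus strand and B2m at chr2:122147437-122147736 on the plus strand. Capitals mark a binding sequence of NF-kappaB (the kB site) in the first and second, and GAAA, any pair of bases and GAAA again, the core bound by interferon regulatory factors (the IRF pair), in the third.
H2-K1: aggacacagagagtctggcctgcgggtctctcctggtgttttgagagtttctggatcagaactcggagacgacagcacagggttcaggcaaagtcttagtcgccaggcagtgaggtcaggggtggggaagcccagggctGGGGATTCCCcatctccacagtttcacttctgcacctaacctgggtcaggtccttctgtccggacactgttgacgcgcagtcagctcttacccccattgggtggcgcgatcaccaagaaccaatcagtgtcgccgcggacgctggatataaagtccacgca
H2-D1: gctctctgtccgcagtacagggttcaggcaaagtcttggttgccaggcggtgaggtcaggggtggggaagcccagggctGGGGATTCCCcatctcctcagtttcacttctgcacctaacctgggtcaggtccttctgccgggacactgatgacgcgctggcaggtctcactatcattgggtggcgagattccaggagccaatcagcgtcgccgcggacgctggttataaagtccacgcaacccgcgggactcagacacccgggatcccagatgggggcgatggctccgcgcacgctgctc
B2m: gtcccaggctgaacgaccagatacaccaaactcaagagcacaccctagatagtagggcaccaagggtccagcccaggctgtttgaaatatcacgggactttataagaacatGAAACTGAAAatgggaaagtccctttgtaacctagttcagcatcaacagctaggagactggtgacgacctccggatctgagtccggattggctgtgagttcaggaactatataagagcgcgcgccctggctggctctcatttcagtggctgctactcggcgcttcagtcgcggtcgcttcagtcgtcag
The marked match begins 111 bases before the start in H2-K1, 171 in H2-D1 and 139 in B2m.

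A RefSeq window was found for 23 of the 33 genes with at least 20 counts. Each motif was searched on both strands, and a gene with 2 windows counted once. The kB site, searched by the exact letters in capitals in the H2-K1 window, was present in 4 of 12 class I genes (H2-K1, H2-D1, H2-Q6 and H2-Q7) and in 0.107% of all 32841 windows. These genes are close relatives, so the 4 matches share their ancestry. As the string is that of H2-K1, its own match was certain, and the share of all windows is background only. All 4 rose, as did 10 of all 15 tested class I genes. The IRF pair was present in B2m, H2-T22 and H2-T23, 3 of 12, against 3.44% of all windows, and B2m and H2-T23 rose. Whether genes with a match rose more often than those without was not tested. No window of the 5 class II genes or the 5 processing genes held either of these exact letter strings. ATTGG, the core of the Y box bound by NF-Y, was found in 19 of the 23 genes and in 37.4% of all windows, and TGACG, the core of a cyclic AMP response element, in 10 of the 23 and 20.8%. None of these strings contains another, and a match is a description of the sequence only. Other forms of the same sites were not searched or marked. A window without a match, among them those printed above, can therefore still hold such a site.

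The windows of the class II genes with the 2 largest fitted rises are shown for their Y box, marked by capitals as ATTGG or, on the other strand, CCAAT. H2-Aa is at chr17:34287774-34288073 on the minus strand and H2-Eb1 at chr17:34305617-34305916 on the plus strand.
H2-Aa: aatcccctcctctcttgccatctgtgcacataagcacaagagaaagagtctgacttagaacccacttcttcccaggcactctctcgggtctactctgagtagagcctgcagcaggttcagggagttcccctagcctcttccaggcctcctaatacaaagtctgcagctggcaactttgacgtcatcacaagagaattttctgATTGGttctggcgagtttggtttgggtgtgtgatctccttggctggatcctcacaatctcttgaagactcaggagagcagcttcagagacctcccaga
H2-Eb1: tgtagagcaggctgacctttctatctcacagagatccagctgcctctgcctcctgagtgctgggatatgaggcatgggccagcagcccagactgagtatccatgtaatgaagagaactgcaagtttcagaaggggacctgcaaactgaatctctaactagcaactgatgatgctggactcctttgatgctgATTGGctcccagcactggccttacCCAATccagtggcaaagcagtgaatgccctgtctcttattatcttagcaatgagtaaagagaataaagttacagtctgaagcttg
The match begins 48 bases before the start in H2-Aa, and the matches in H2-Eb1 begin 59 and 35 bases before it.

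Most class I genes were higher in Trim28 KO cartilage. Of 16 class I genes with at least 20 counts, 15 passed the filter on low counts and were tested, and 10 of these rose and 0 fell, beside 8.64% and 8.77% of all genes tested. DESeq2 called 7 higher and 0 lower, and at an unadjusted p under 0.05 edgeR had 13 higher and 0 lower. The median log2 fold change over the 15 was 1.07, against -0.02 over all tested genes. The 10 were B2m, H2-D1, H2-K1, H2-Q4, H2-T23, H2-Q7, H2-M3, H2-T10, H2-Q6 and H2-Q5. Of these, H2-T10 and H2-Q5 are annotated as polymorphic pseudogenes.

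B2m, the light chain common to all class I molecules, was the most abundant member, at 174 and 167 CPM in WT and 355 and 216 CPM in Trim28 KO. The genotypes did not overlap, but Trim28 KO 2 lay much nearer to WT than Trim28 KO 1 did. The rise was 1.67-fold (0.74 ± 0.23 on the log2 scale, SE, 2 libraries a genotype, adjusted p = 0.0260), and without Trim28 KO 1 it was 0.34 on the log2 scale and not called (adjusted p = 0.442). With all 4 libraries limma-voom did not call B2m either (adjusted p = 0.0551).

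The classical heavy chain genes H2-D1 and H2-K1, which present peptides to CD8 T cells, were the next most abundant of class I. H2-D1 stood at 81.0 and 66.2 CPM in WT and at 141 and 111 CPM in Trim28 KO (log2 fold change of 0.77 ± 0.20, adjusted p = 0.00936). H2-K1 stood at 38.0 and 36.6 CPM in WT and at 109 and 77.0 CPM in Trim28 KO, a 2.49-fold rise (log2 fold change of 1.32 ± 0.20, adjusted p = 5.54e-05). Both were higher in each Trim28 KO library than in either WT library. H2-K1 kept its call under every alternative tried, whereas H2-D1 lost it without Trim28 KO 1 (0.59, adjusted p = 0.200). Levels were summed over the 15 class I heavy chain genes with at least 20 counts. The sum was 177 and 167 CPM in WT and 376 and 286 CPM in Trim28 KO. It included H2-K2 and H2-T-ps, annotated as pseudogenes, and H2-T10 and H2-Q5, annotated as polymorphic pseudogenes. H2-K1 and H2-D1 together made up 67.2% and 61.5% of that sum in WT and 66.4% and 65.5% in Trim28 KO, so their joint share did not separate the genotypes.

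Nonclassical class I genes rose as well. H2-T23, which encodes Qa-1, a ligand of inhibitory receptors on natural killer cells, had 5.84 and 7.83 CPM in WT and 20.9 and 15.9 CPM in Trim28 KO (log2 fold change of 1.42 ± 0.23, adjusted p = 8.50e-05). H2-M3, which presents N-formylated peptides of bacterial and mitochondrial origin, had 1.49 and 1.77 CPM in WT and 6.90 and 5.32 CPM in Trim28 KO, a 3.74-fold rise (log2 fold change of 1.90 ± 0.32, adjusted p = 1.45e-04). The genotypes did not overlap in either gene, and Trim28 KO 1 was the higher Trim28 KO library in both. Neither gene lost its call under any alternative.

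The Q genes encode heavy chains that include the lipid-anchored Qa-2 molecule. H2-Q7 went from 2.44 and 2.93 CPM in WT to 10.3 and 6.87 CPM in Trim28 KO (log2 fold change of 1.67 ± 0.28, adjusted p = 1.76e-04). H2-Q4 had 9.72 and 9.65 CPM in WT and 18.6 and 17.6 CPM in Trim28 KO (0.90 ± 0.20, adjusted p = 0.00296). In H2-Q4 the libraries of a genotype nearly coincided, and its call was still lost without Trim28 KO 1 (0.86, adjusted p = 0.0754), where a lone Trim28 KO library is left. H2-Q6 (16, 8, 41 and 30 counts in WT 1, WT 2, Trim28 KO 1 and Trim28 KO 2), H2-T10 (16, 13, 44 and 32 counts) and H2-Q5 (4, 2, 21 and 13 counts) had the fewest reads of the 10. Their log2 fold changes were 1.53 ± 0.48, 1.36 ± 0.44 and 2.43 ± 0.66. DESeq2 called none of these 3 (adjusted p from 0.109 to 0.142), and limma-voom did not call H2-T10 (adjusted p = 0.0551). None of the 3 was called without WT 2 or without Trim28 KO 1, nor H2-Q6 and H2-T10 without Trim28 KO 2.

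Of all tested genes, called or not, 28.3% were higher in both Trim28 KO libraries than in both WT libraries. The same held for 4 of the 5 tested class I genes that were not called. They were H2-T22, a ligand of some gamma-delta T cell receptors, with 32.8 and 36.5 CPM in WT and 56.1 and 42.0 CPM in Trim28 KO (0.50 ± 0.19, adjusted p = 0.0787), the pseudogene H2-K2 (1.07 ± 0.39, adjusted p = 0.0618), H2-T24 (0.71 ± 0.43) and H2-Q10, a secreted heavy chain made mainly by liver (0.94 ± 0.44). H2-K2 was called without WT 1, by library size alone and with no filter on low counts, and H2-T22 without WT 2 and by library size alone. H2-M5, with 8, 18, 9 and 18 counts, overlapped between the genotypes and had a log2 fold change of 0.03 ± 0.55, whose sign turned without WT 1 or without Trim28 KO 2. H2-T-ps, an untested pseudogene, had 0 and 6 counts in WT and 16 and 7 in Trim28 KO.

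Compared between genes per kilobase of exon, B2m led in WT with 199 CPM per kilobase, followed by H2-D1 with 28.5, H2-K1 with 12.7, H2-T22 with 10.1, H2-Q4 with 3.73 and H2-T23 with 2.37 CPM per kilobase. In Trim28 KO these means were 332, 48.7, 31.7, 14.4, 6.96 and 6.35 CPM per kilobase, in the same order of genes. Many H2-Q, H2-T, H2-K and H2-D genes are near-identical over long stretches. Reads that map to several of them were not counted, so how reads divide among these genes is uncertain. Exons of H2-T22, H2-Q4 and H2-T10 also overlap antisense genes over 1003, 496 and 925 bases, and the counting did not use strand.

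**Figure D1:**
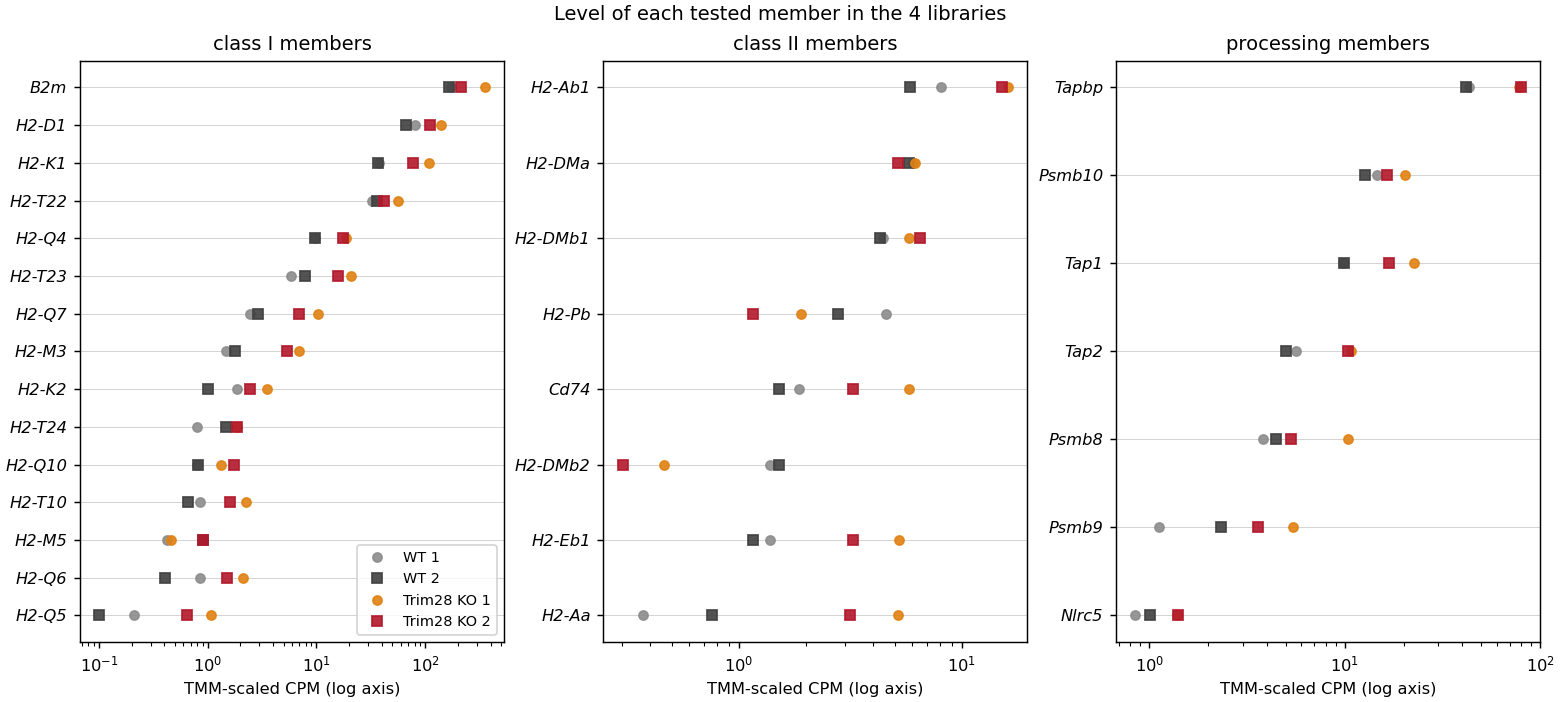
Level of each tested member except H2-Ke6 in TMM-scaled CPM on a log axis, by class, with 1 point per library (WT in grey and black, Trim28 KO in orange and red). H2-K1, H2-T23, H2-Q7, H2-M3 and H2-Aa show wide gaps between the genotypes, H2-M5 and H2-DMa overlap, and H2-Pb and H2-DMb2 lie lower in Trim28 KO.

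Of the 7 genes of antigen processing, 5 rose and 0 fell, with a median log2 fold change of 0.92, beside 8.64% of all genes rising and 8.77% falling. DESeq2 called 4 higher and 0 lower, and at an unadjusted p under 0.05 edgeR had 6 higher and 0 lower. Tapbp encodes tapasin, which holds class I molecules at the TAP transporter. It stood at 43.2 and 41.8 CPM in WT and at 78.4 and 79.8 CPM in Trim28 KO (log2 fold change of 0.90 ± 0.19, adjusted p = 0.00134). Its libraries lay within 2 CPM of each other in each genotype, and it was the only processing gene called under every alternative. It shares 149 exon bases with Zbtb22 on the same strand and 904 with Gm19412, an untested antisense gene.

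Tap1 and Tap2 encode the subunits of the peptide transporter. Tap1 had 9.82 and 9.95 CPM in WT and 22.5 and 16.8 CPM in Trim28 KO (0.99 ± 0.21, adjusted p = 0.00174), and Tap2 had 5.63 and 5.0 CPM in WT and 10.7 and 10.4 CPM in Trim28 KO (0.99 ± 0.23, adjusted p = 0.00409). Exons of Tap2 overlap those of Gm15821 and Gm20496, on the other strand, over 533 and 165 bases. The fitted changes of Tap1 and Tap2 were alike, and neither gene overlapped between the genotypes. Without Trim28 KO 1 neither was called (adjusted p = 0.110 for Tap1 and 0.0786 for Tap2), and Tap2 was not called without Trim28 KO 2 (adjusted p = 0.0561).

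Psmb8, Psmb9 and Psmb10 encode the catalytic subunits of the immunoproteasome, which take the places of Psmb5, Psmb6 and Psmb7 of the standard proteasome. Psmb9 went from 1.12 and 2.32 CPM in WT to 5.46 and 3.61 CPM in Trim28 KO (1.39 ± 0.37, adjusted p = 0.0106), and Psmb8 from 3.82 and 4.44 to 10.4 and 5.32 CPM (0.92 ± 0.30, adjusted p = 0.0387). Psmb10 had 14.6 and 12.7 CPM in WT and 20.2 and 16.5 CPM in Trim28 KO and was not called (0.43 ± 0.20, adjusted p = 0.158). Trim28 KO 2 lay close to WT for Psmb8, and without Trim28 KO 1 the log2 fold change of that gene was 0.36 (adjusted p = 0.582). Psmb8 was also not called by DESeq2, by limma-voom, with upper-quartile factors, without WT 1 or with a replicate block (adjusted p = 0.0632). For Psmb9 the adjusted p was 0.0927 without WT 1, 0.250 without Trim28 KO 1 and 0.0550 without Trim28 KO 2, so no call remained in any of these fits. Exons of Psmb9 and Tap1 overlap on opposite strands over 212 bases, and reads there went uncounted or could not be told apart by strand. Those of Psmb8 overlap Gm20496, on the other strand, over 498 bases.

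Set against the standard subunit it replaces, Psmb8 amounted to 1.85 and 2.50 CPM per kilobase for every 100 of Psmb5 in WT and to 4.32 and 2.47 in Trim28 KO, so the genotypes overlapped. Psmb9 amounted to 0.233 and 0.597 for every 100 of Psmb6 in WT and to 0.921 and 0.747 in Trim28 KO, with no overlap. Psmb10 amounted to 40.9 and 38.0 for every 100 of Psmb7 in WT and to 37.2 and 39.2 in Trim28 KO, with overlap. An exact permutation test of 2 libraries against 2 cannot go below p = 0.333, so these ratios were not tested. The class I transactivator gene Nlrc5, with 16, 20, 27 and 28 counts, was not called (0.58 ± 0.44, adjusted p = 0.403).

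Class II genes moved in both directions. Of 9 with at least 20 counts, 8 were tested, and 4 rose (H2-Ab1, H2-Aa, H2-Eb1 and Cd74) and 2 fell (H2-DMb2 and H2-Pb), beside 8.64% and 8.77% of all genes. DESeq2 called 4 higher and 0 lower, and at an unadjusted p under 0.05 edgeR had 4 higher and 2 lower. The median log2 fold change was 0.83. The genes that rose encode the chains of the class II molecule itself and the invariant chain.

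H2-Aa and H2-Ab1 encode the alpha and beta chains of I-A, the class II molecule of C57BL/6 mice. H2-Aa had 7 and 15 counts in WT and 100 and 63 in Trim28 KO, or 0.372 and 0.758 CPM against 5.15 and 3.16 CPM. This was the largest rise among the tested members, 7.24-fold (log2 fold change of 2.86 ± 0.43, adjusted p = 4.38e-05). H2-Ab1 was more abundant, at 8.02 and 5.86 CPM in WT and 16.1 and 15.1 CPM in Trim28 KO (1.17 ± 0.22, adjusted p = 6.01e-04). Both kept their calls under every alternative that tested them. Per kilobase, H2-Aa amounted to 3.13 and 8.74 for every 100 of H2-Ab1 in WT and to 21.6 and 14.2 in Trim28 KO. By this measure the chains of the same molecule stood at unlike levels in all 4 libraries. The measure divides by annotated exon length, 3798 bases for H2-Aa and 2568 for H2-Ab1, which need not be the transcript length.

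H2-Eb1 encodes the beta chain of I-E, whose alpha chain gene is inactive in this strain. It had 1.38 and 1.16 CPM in WT and 5.20 and 3.26 CPM in Trim28 KO (1.73 ± 0.36, adjusted p = 0.00150), and the inactive partner H2-Ea-ps had 1 count in all. Cd74, the invariant chain that guides class II molecules to the endosome, had 1.86 and 1.52 CPM in WT and 5.82 and 3.26 CPM in Trim28 KO (1.43 ± 0.35, adjusted p = 0.00607). Neither gene overlapped between the genotypes, and Trim28 KO 1 was the higher Trim28 KO library in both. Without Trim28 KO 1 neither was called (adjusted p = 0.107 for H2-Eb1 and 0.233 for Cd74).

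None of the 3 genes of H2-DM, which loads class II molecules, passed the test upwards. H2-DMa, whose product exchanges the invariant chain fragment for peptide, had 6.05 and 5.81 CPM in WT and 6.13 and 5.17 CPM in Trim28 KO (-0.07 ± 0.26, adjusted p = 0.886). Its sign turned without Trim28 KO 2, and 360 bases of its exons overlap exons of Brd2 on the other strand. Its partner H2-DMb1 had 4.41 and 4.29 CPM in WT and 5.82 and 6.47 CPM in Trim28 KO (0.50 ± 0.26, adjusted p = 0.211). H2-DMb2, the second beta chain gene, had 26 and 30 counts in WT and 9 and 6 in Trim28 KO, a 3.75-fold fall (-1.91 ± 0.51, adjusted p = 0.0104). H2-DMb1 and H2-DMb2 are near-identical neighbours 1517 bases apart, so reads shared by both were not counted.

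H2-Pb, a class II pseudogene, had 86 and 55 counts in WT and 37 and 23 in Trim28 KO (-1.26 ± 0.37, adjusted p = 0.0211). Its nearest tested neighbour, 7077 bases away, is Col11a2, a cartilage collagen gene with 10713 and 8050 CPM in WT and 7322 and 10335 CPM in Trim28 KO (-0.09 ± 0.27, not called). Neither fall was firm: DESeq2 called neither H2-DMb2 (adjusted p = 0.0773) nor H2-Pb (0.0739), and both calls were lost without either Trim28 KO library (adjusted p from 0.0811 to 0.248), that of H2-Pb without WT 1 too (0.220). The class II transactivator gene Ciita had 5, 3, 4 and 11 counts, was too low to be tested, and overlapped between the genotypes. It shares 329 exon bases with Dexi on the other strand. H2-Ob and H2-Oa, which encode an inhibitor of H2-DM, had totals of 14 and 3 counts.

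**Figure D2:**
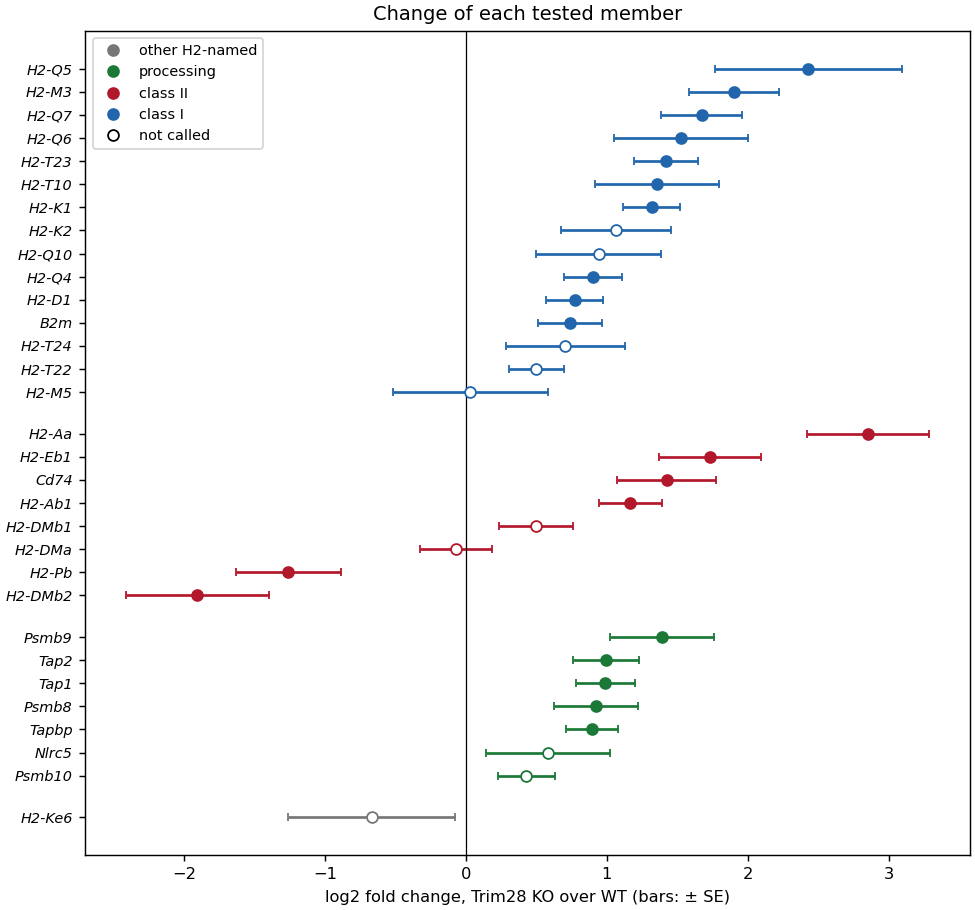
Log2 fold change of Trim28 KO over WT for each of the 31 tested members (points, filled where called at an adjusted p under 0.05), with bars of 1 SE, grouped by class. All 15 class I and all 7 processing genes lie above 0, while class II spans from -1.91 for H2-DMb2 to 2.86 for H2-Aa.

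In all, 19 of the 31 tested members rose and 2 fell, beside 8.64% and 8.77% of all tested genes. Of the 33 genes with at least 20 counts, 27 were higher in both Trim28 KO libraries than in both WT libraries and 3 were lower in both. Such a lack of overlap was seen in 58% of all tested genes, 28.3% upwards and 29.7% downwards. Among the 19 that rose, 18 were higher in Trim28 KO 1 than in Trim28 KO 2, the exception being Tapbp. How often this order holds among all genes that rose was not counted, so it is not shown to be particular to these. More of the 21 calls were lost without Trim28 KO 1 than without any other library. Calls among all tested genes were fewest in that fit too, so this loss was not particular to these genes. The 7 calls kept under every alternative that tested the gene were those of H2-K1, H2-T23, H2-Q7, H2-M3, H2-Ab1, H2-Aa and Tapbp. H2-Ke6, with 11, 11, 6 and 8 counts, was not called (-0.67 ± 0.59), and 1419 bases of its exons are shared with another gene model.

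Levels of macrophage markers differed between the same libraries. For this and every later list, the shares of all tested genes to set beside the calls are 8.64% rising and 8.77% falling. Of 18 macrophage markers, all tested, 11 rose and 0 fell (12 higher and 0 lower at an unadjusted p under 0.05 by edgeR, 11 and 0 by DESeq2). None was at 0. Their summed level was 212 and 221 CPM in WT and 570 and 358 CPM in Trim28 KO, so Trim28 KO 1 was the highest library here as it was for most members. C1qa, a complement gene typical of tissue macrophages, had 16.1 and 14.1 CPM in WT and 88.2 and 50.2 CPM in Trim28 KO (2.19 ± 0.25, adjusted p = 1.45e-05), and C1qc, of the same complement complex, rose too (1.93 ± 0.28). Mertk, a receptor for dying cells and with these among the 3 most abundant markers, was not called and stood lower in both Trim28 KO libraries (-0.35 ± 0.19), and Csf1r, the receptor that macrophages depend on, was not called either (0.46 ± 0.19). Without Trim28 KO 1 the calls of Aif1, Cd14, Fcgr3 and Mrc1 were lost. Of 8 genes common to leukocytes 4 rose and 0 fell (4 and 0 at an unadjusted p under 0.05, 3 and 0 by DESeq2), with sums of 78.9 and 82.4 CPM in WT and 132 and 88.2 CPM in Trim28 KO, and Ptprc, which encodes CD45, was not called (3.45, 3.28, 5.05 and 4.27 CPM). The calls of this list, Laptm5, Coro1a, Cd53 and Cd52, were all lost without Trim28 KO 1, and its most abundant gene, Lcp1, was not called (-0.06 ± 0.20). In bulk RNA, more or fewer cells of a type and more or less RNA per cell cannot be told apart. The part of macrophages in the rise of class I, class II and processing genes was not tested.

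The summed level of H2-Aa, H2-Ab1, H2-Eb1 and Cd74 was 11.6 and 9.29 CPM in WT and 32.3 and 24.7 CPM in Trim28 KO. For every 100 CPM of macrophage markers this was 5.48 and 4.20 CPM in WT and 5.67 and 6.90 CPM in Trim28 KO, values that nearly touch between the genotypes. For every 100 CPM of leukocyte markers it was 14.7 and 11.3 CPM in WT and 24.5 and 28.0 CPM in Trim28 KO, values that lie further apart. Which ratio is taken therefore changes how far the genotypes separate.

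**Figure D3:**
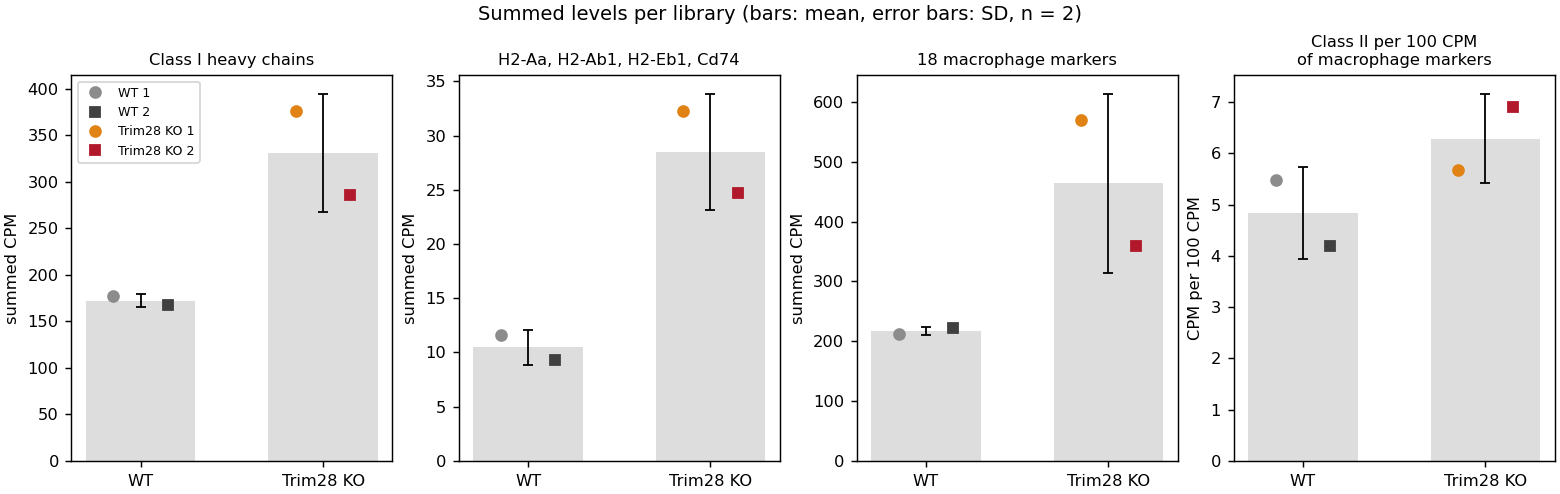
Summed TMM-scaled CPM per library of the class I heavy chain genes, of 4 class II genes and of 18 macrophage markers, and the class II sum for every 100 CPM of macrophage markers (points: libraries; bars: mean; error bars: SD, n = 2). The class I sum includes annotated pseudogenes. The first 3 sums are higher in both Trim28 KO libraries and highest in Trim28 KO 1. The ratio lies between 4.20 and 5.48 in WT and between 5.67 and 6.90 in Trim28 KO.

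Most markers of other cells that present antigen were too low to be tested. Of 9 dendritic cell markers only Zbtb46 (0.65 ± 0.20, higher) and Batf3 (-1.54 ± 0.31, lower) had enough counts to be tested. Xcr1 had no count in any library, and Flt3, Siglech, Ccr7 and Cd209a had at most 3 counts in any. The list summed to 18.7 to 18.8 CPM in WT and 20.03 to 23.7 CPM in Trim28 KO, most of it from Zbtb46. Of 8 B cell markers 3 were tested and 1 rose, Blnk (1.90 ± 0.64). Ms4a1 had 0, 1, 2 and 0 counts, and the list summed to 1.17 and 4.14 CPM in WT and 2.27 and 1.46 CPM in Trim28 KO. Of 10 T and natural killer cell markers 2 were tested and 1 rose, Cd4 (4, 5, 16 and 15 counts), a gene that mouse macrophages can also express, with sums of 1.77 to 2.32 CPM over the 4 libraries. Cd8a and Ncr1 had no count in any library. A count of 0 allows a level of up to 0.159 CPM in WT 1, the highest such limit among the libraries, by counting error alone. DESeq2 called none of Zbtb46, Blnk and Cd4, and only Batf3 of these 3 lists. Blnk also lost its call with a replicate block. Neither Blnk nor Zbtb46 was called without WT 1 or without either Trim28 KO library. Cd4 was also not called by limma-voom, with upper-quartile factors, with no filter on low counts, with a replicate block or without any 1 of the 4 libraries.

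The other marker lists differed among themselves. All 6 tested osteoclast genes fell, with sums of 336 and 332 CPM in WT and 184 and 167 CPM in Trim28 KO. All 6 tested erythroid genes fell too, with sums of 255 and 349 CPM in WT and 75.6 and 81.8 CPM in Trim28 KO. The list sums of neutrophil genes were 3.40 and 27.2 CPM in WT and 1.44 and 0.853 CPM in Trim28 KO, so WT 2 stood apart, and 2 of 5 tested genes fell, Ltf and Mpo, whose calls were lost without either Trim28 KO library, that of Mpo also without WT 2. Single calls of the osteoclast and erythroid lists lost without a library were those of Ctsk (either Trim28 KO library), Oscar (Trim28 KO 2) and Slc4a1 (WT 2 or either Trim28 KO library). None of 9 endothelial genes was called by edgeR (1 higher and 1 lower at an unadjusted p under 0.05) or by DESeq2, with sums of 607 and 519 CPM in WT and 471 and 543 CPM in Trim28 KO. Of 8 skeletal muscle genes 1 rose and 1 fell by edgeR, DESeq2 and limma-voom, with sums of 625 and 823 CPM in WT and 1208 and 462 CPM in Trim28 KO. Myog, a regulator of muscle differentiation, had 1.96 and 4.09 CPM in WT and 10.1 and 5.77 CPM in Trim28 KO (1.39 ± 0.36, adjusted p = 0.0176), with Trim28 KO 1 highest as for most members, and lost its call with a replicate block or without Trim28 KO 1. Tnnt3, a troponin gene, fell (-0.91 ± 0.22, adjusted p = 0.00611), a call lost without Trim28 KO 2. Whether any of these bears on the falls of H2-DMb2 and H2-Pb, or on the rises, was not tested.

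Further genes of the class I pathway rose in part. Of 9 genes that load or trim class I peptides 3 rose and none fell (4 higher and 0 lower at an unadjusted p under 0.05 and by DESeq2), with a median log2 fold change of 0.37. Tapbpl, a tapasin relative that edits peptides, went from 4.20 and 4.14 CPM to 11.3 and 12.04 CPM (1.49 ± 0.24, adjusted p = 8.56e-05). Erap1, the aminopeptidase that trims peptides in the endoplasmic reticulum, had 14.8 and 14.95 CPM in WT and 28.9 and 24.5 CPM in Trim28 KO (0.84 ± 0.20, adjusted p = 0.00355). Calr, the chaperone calreticulin, rose as well (0.80 ± 0.22), and Canx, which encodes calnexin, did not pass the test (0.52 ± 0.21, adjusted p = 0.0889). Tapbpl and Erap1 had no overlap between the genotypes. Without Trim28 KO 1 the calls of Erap1 and Calr were lost, and that of Calr also without WT 1 or Trim28 KO 2.

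Of 14 standard proteasome subunits 1 rose, Psmb3 (0.77 ± 0.22, adjusted p = 0.0200), and none fell, beside 8.64% and 8.77% of all tested genes. At an unadjusted p under 0.05 edgeR had 5 higher and 0 lower, and DESeq2 called 1 higher and 0 lower. The median log2 fold change was 0.34. The Psmb3 call was lost without WT 2 or without either Trim28 KO library. Psma3 (0.51 ± 0.20), Psma7 (0.48 ± 0.21), Psmb7 (0.48 ± 0.20), Psmb5 (0.25 ± 0.19) and Psmb6 (0.31 ± 0.21) were not called. Of the 4 proteasome activator genes none was called by edgeR or DESeq2, and 1 was higher and 0 lower at an unadjusted p under 0.05. Their log2 fold changes were 0.30 ± 0.19 for Psme1 and 0.27 ± 0.31 for Psme2, which interferon is known to raise, 0.38 ± 0.18 for Psme3 and 0.18 ± 0.19 for Psme4.

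Of 10 genes of the compartment where class II molecules meet peptide, 6 rose and none fell (7 higher and 0 lower at an unadjusted p under 0.05, 6 and 0 by DESeq2), with a median of 0.73. Ctss, the protease that cuts the invariant chain in antigen-presenting cells, had 5.26 and 6.92 CPM in WT and 29.8 and 13.8 CPM in Trim28 KO (1.84 ± 0.37, adjusted p = 0.0136). Ifi30, a thiol reductase of the same compartment, had 30.7 and 34.5 CPM in WT and 77.7 and 61.4 CPM in Trim28 KO (1.09 ± 0.19, adjusted p = 2.61e-04). Ctsd (1.12 ± 0.21), Lamp1 (0.997 ± 0.20), Lgmn (0.72 ± 0.20) and Ctsl (0.73 ± 0.21) rose too, and these are general lysosomal genes that most cells express. The calls of Lgmn and Ctsl were lost without Trim28 KO 1. Of 7 genes for factors that bind class II promoters (the RFX subunits, NF-Y and Creb1) none was called by edgeR or DESeq2, with 1 higher and 0 lower at an unadjusted p under 0.05 and a median of -0.11. The smallest p-values were those of Nfya (0.39 ± 0.19), Nfyb (-0.40 ± 0.20), Creb1 (-0.28 ± 0.18) and Rfx5 (-0.31 ± 0.23).

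The genes that carry the interferon and NF-kappaB signal to MHC promoters went both ways. Ifng and Ifnb1 had no count in any library. Of 22 genes tested, 1 rose and 2 fell, beside 8.64% and 8.77% of all tested genes, with a median of 0.06. At an unadjusted p under 0.05 edgeR had 7 higher and 5 lower, and DESeq2 called 2 higher and 1 lower. Stat2 had 18.1 and 26.8 CPM in WT and 40.9 and 36.9 CPM in Trim28 KO (0.79 ± 0.20, adjusted p = 0.00827). The Stat2 call was lost without WT 1 or without either Trim28 KO library. Socs3, an inhibitor of cytokine signalling, fell (-2.07 ± 0.24, adjusted p = 2.96e-06). The kinase gene Jak2 passed the threshold narrowly (-0.55 ± 0.19, adjusted p = 0.0478), and most alternatives ended this call: DESeq2, limma-voom, relative log expression factors, scaling by totals only, testing every gene with a count, and leaving out WT 2, Trim28 KO 1 or Trim28 KO 2. Irf9, the partner of STAT2, did not pass the test (0.55 ± 0.20, adjusted p = 0.0574). Irf1, a direct activator of class I and Tap1 promoters, had lower levels in both Trim28 KO libraries, 32.6 and 30.3 CPM against 44.7 and 44.1 CPM in WT, without passing the test (-0.50 ± 0.18, adjusted p = 0.0632). Rela (0.24 ± 0.19) and Nfkb1 (0.20 ± 0.18), which encode NF-kappaB subunits, were not called.

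Relatives of class I outside the H2 genes and costimulatory genes were mixed. Of 10 class I-like genes tested 3 rose and 2 fell, with a median of 0.29. Azgp1, which encodes a secreted protein with a class I fold, had the largest fitted rise of the list (from 1.96 and 2.47 CPM to 57.7 and 50.3 CPM, 4.60 ± 0.24), and Hfe, of iron regulation (0.95 ± 0.24), and Mr1, which presents vitamin metabolites (0.67 ± 0.22), rose too. Cd1d1, which presents lipids, fell from 5.74 and 5.51 CPM to 2.37 and 2.31 CPM (-1.26 ± 0.30, adjusted p = 0.00412), and Fcgrt, the neonatal Fc receptor that also pairs with B2m, fell by 0.63 on the log2 scale (SE 0.20, adjusted p = 0.0295). Both falls lost their call without either Trim28 KO library, and that of Fcgrt also without WT 1 and by library size alone. Mr1 was not called by DESeq2, without WT 2 or without either Trim28 KO library, and Hfe not without Trim28 KO 1. Of 7 costimulatory genes tested 2 rose and none fell (3 higher and 0 lower at an unadjusted p under 0.05, 1 and 0 by DESeq2). Cd80 had 0.850 and 1.16 CPM in WT and 2.63 and 3.66 CPM in Trim28 KO (1.64 ± 0.39, adjusted p = 0.00490), and Icam1 rose too (0.58 ± 0.19). Cd80 lost its call without Trim28 KO 2, and Icam1 by DESeq2, by limma-voom, without WT 2 and without either Trim28 KO library. Cd86 (1.29 ± 0.46, adjusted p = 0.0531) and Icosl (0.72 ± 0.35) did not pass the test.

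Most of the genes sit together in the genome: 50 of the 55 lie on chromosome 17, and 27 of the 31 tested ones fall between Tapbp and H2-M2, an interval of 3.57 Mb from 33915899 to 37483552 on GRCm38. The others are B2m on chromosome 2, Psmb10 and Nlrc5 on chromosome 8, Ciita on chromosome 16 and Cd74 on chromosome 18. Within the interval 17 of the 27 tested members rose (63.0%) and 2 fell. Of 91 other tested genes in it, 9 rose (9.9%) and 2 fell (2.2%), near the 8.64% and below the 8.77% of all genes, with a median log2 fold change of 0.02. The 9 that rose included Neu1, a lysosomal sialidase (1.49 ± 0.20), the heat shock genes Hspa1a (1.11 ± 0.22) and Hspa1b (1.04 ± 0.22), and Aif1, 1 of the 18 macrophage markers (1.99 ± 0.37). The 2 that fell were Tnxb (-1.49 ± 0.22) and the complement gene C4b (-2.07 ± 0.29). These 6 were named after their values were seen.

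**Figure D4:**
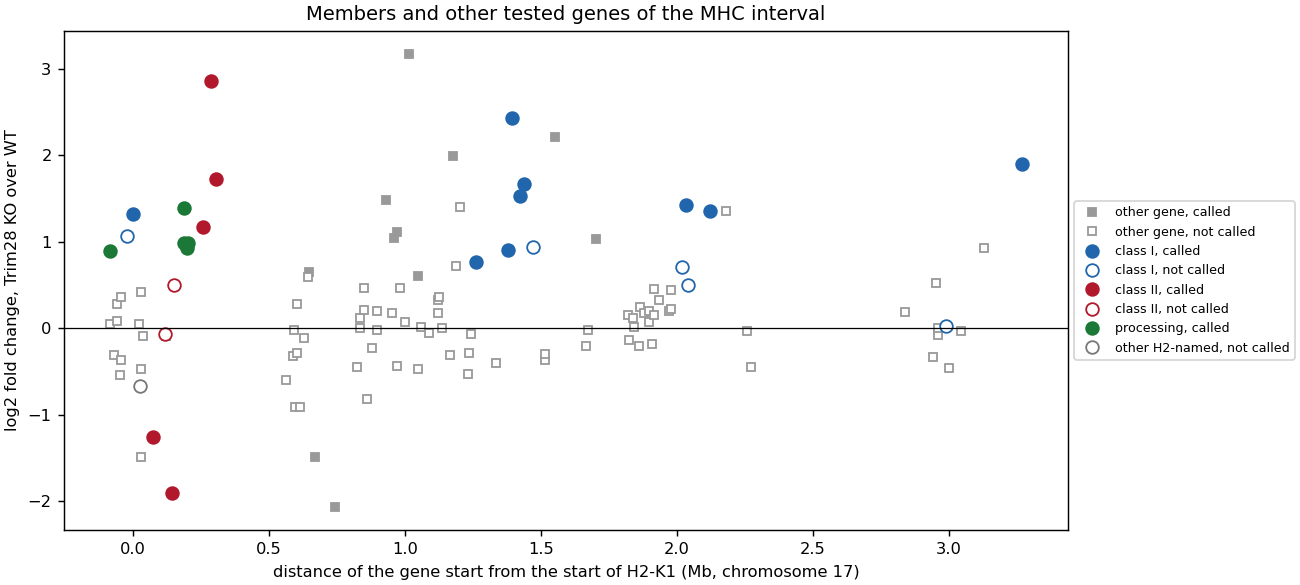
Log2 fold change of Trim28 KO over WT against distance from the start of H2-K1 in megabases, for the tested members (circles, by class) and the 91 other tested genes (squares) of the interval, filled where called. Of the members 17 of 27 are filled above 0, of the other genes 9 of 91, and the lowest members are H2-DMb2 and H2-Pb.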

How the data were processed

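The deposited values are raw counts, which the authors made with featureCounts 1.6.4. The command in the file headers, for paired reads, groups exon counts by gene symbol in GENCODE M23 (mm10) and sets no strand, multi-mapping or multi-overlap flag, so reads shared by near-identical H2 genes went uncounted. The aligner is not given in the sources used here. The exon length column deposited by the authors (other values, in bases) gave CPM per kilobase. It covers the annotated exons of a gene and can exceed the transcript length, so levels per kilobase compare different genes only roughly. Genotypes come from the labels.

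Genes kept by edgeR's filterByExpr (16639) received TMM factors and entered a quasi-likelihood fit with genotype alone (edgeR 4.0.16 in R 4.3.3). P-values were adjusted by Benjamini-Hochberg over all tested genes. SE is the log2 fold change over the root of F. Positions come from GENCODE M21 on GRCm38, promoter windows from RefSeq. The members, the lists and the rule to name every member with at least 20 counts were chosen with earlier results of these data known. Of each pathway list the rule takes called genes and up to 4 with the smallest p-values, and of each marker list the genes at 0 and up to 3 of the most abundant; for most marker lists fewer are named. Other genes of these lists were named after their values were seen. The steps were tested on simulated data. Alternatives were other scalings (relative log expression, upper quartile, library size), filters, DESeq2 1.42.0, limma-voom (limma 3.58.1), a replicate block and leaving out each library. Intervals and limits for counts of 0 cover counting error only. Values of some single genes of these lists are not reported here.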

Additional observations from a re-analysis of the deposited data

How the results depend on the processing

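Without 1 library in turn, where the lone library of a genotype is assumed to vary like the others, rises among all genes ranged from 505 to 1427 and falls from 392 to 1411, both lowest without Trim28 KO 1. Class I rises ranged from 4 to 11, processing rises from 1 to 5, class II rises from 2 to 4 and class II falls from 0 to 2. Over the pathway lists rises ranged from 7 to 17 and falls from 1 to 4, and over the marker lists rises ranged from 7 to 24. With a filter of 5 CPM in at least 2 libraries, which left 3 class II genes to test, 1 class II gene rose and 0 fell, and 9 marker genes fell. DESeq2 called 0 class II falls. Other scalings kept each of these counts within 1.5 times. Of 369 refits of Trim28 and single members, 324 kept direction and call, 37 lost the call, 5 gained it and 3 changed sign. The sign changes were in H2-M5 (-0.53 to 0.71 without 1 library in turn, -0.39 without WT 1) and H2-DMa (-0.198 to 0.0471, the latter without Trim28 KO 2), neither called. The replicate numbers are only numbers in the labels: the differences between replicates 1 and 2 of the 2 genotypes correlated at r = -0.082 over 16639 genes. With a replicate block 1477 genes rose and 1444 fell, and 10 class I, 4 class II and 4 processing genes rose and 2 class II genes fell. Counts in single digits limit H2-Q5, H2-Aa in WT and H2-DMb2 in Trim28 KO.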
